A study of Mus musculus with 8 samples.

Results

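Receptors for glutamate, GABA, acetylcholine, serotonin and dopamine are built from the products of a large set of genes, and 76 of them were examined in mouse liver for the histone mark H3K27-me3. They were chosen by name from the GENCODE annotation of the mm10 genome, as protein-coding genes on chromosomes 1 to 19 whose symbols begin with Gria, Grik, Grid, Grin, Grm, Gabra, Gabrb, Gabrg, Gabrr, Gabrq, Htr, Chrna, Chrnb, Chrm or Drd followed by a digit. The same chromosomes carry 20720 protein-coding genes in all. The rule used no measured value. By symbol, 46 of the genes encode subunits of ligand-gated ion channels and 29 encode G protein-coupled receptors. The remaining gene, Grid2ip, encodes a protein that interacts with a delta glutamate receptor and is no receptor itself, but it was kept because the rule takes it.

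Ion channel receptors open when the transmitter binds and pass ions within milliseconds, whereas G protein-coupled receptors act through second messengers. Most of these genes are transcribed chiefly in neurons, and several, among them Htr2a, Htr2b, Chrna7 and Chrm3, have been studied in liver cells. H3K27-me3, trimethylation of lysine 27 on histone H3, is deposited by Polycomb complexes, lies over many genes that a tissue does not use, and favours start sites rich in the dinucleotide CG. JMJD3, the product of Kdm6b, is a demethylase that removes it.

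The livers came from male C57BL/6 mice with a floxed JMJD3 gene. At 8 weeks of age they received AAV-TBG-Cre, whose hepatocyte promoter TBG drives Cre recombinase, or the control virus AAV-GFP, and both groups were fasted for 16 h at 12 weeks after injection. Each group had 2 H3K27-me3 libraries and 2 input libraries, and the authors combined both H3K27-me3 libraries of a group into 1 list of enriched regions. With 1 list per virus there is no spread between mice to set a difference against, so every comparison between the lists describes these lists, and no test between the viruses was possible. The floxed gene is carried by both groups, the virus acts in hepatocytes while the chromatin came from whole liver, and the mark in a part of the cells cannot be told apart from weaker mark in all of them.

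The AAV-Cre list held 59267 regions with a median width of 753 bp, and the AAV-GFP list held 34586 regions with a median width of 231 bp. The lists were therefore called with different yields, and read depth is unknown because the files hold no read counts. Of 14 hepatocyte genes, 1 (Cyp2e1) had a region within 15 kb of a start site in each list. All 7 neuronal and glial genes did so in both lists, as did 4 of 5 cholangiocyte genes, 4 of 5 stellate cell genes and 3 of 5 endothelial genes. Of 4 macrophage genes, 3 had a region in AAV-Cre and 0 in AAV-GFP, and within 1 kb the counts were 1 and 0. Among all protein-coding genes 43.1% had a region within 15 kb in AAV-Cre and 29.0% in AAV-GFP. Both lists marked 27.7% of them and only AAV-Cre marked 15.3%.

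To show what kind of sequence the marked and unmarked start sites hold, the 250 bases just upstream of the RefSeq start (build GRCm38.p6) are given for 5 genes. Each reads from 5′ to 3′ along the gene, and capitals mark every CG dinucleotide. The genes were picked after their values were known. Grin1, the obligate NMDA receptor subunit, and Grik3, a kainate receptor subunit, were marked in both lists. Htr3b, a subunit of the serotonin-gated channel, was marked only in AAV-Cre. Gabra6, a GABA-A receptor subunit best known from cerebellar granule cells, and Htr2b, a serotonin receptor coupled to G proteins, were marked in neither list.
Grin1, chr2:25319188-25319437, minus strand, 27 CG: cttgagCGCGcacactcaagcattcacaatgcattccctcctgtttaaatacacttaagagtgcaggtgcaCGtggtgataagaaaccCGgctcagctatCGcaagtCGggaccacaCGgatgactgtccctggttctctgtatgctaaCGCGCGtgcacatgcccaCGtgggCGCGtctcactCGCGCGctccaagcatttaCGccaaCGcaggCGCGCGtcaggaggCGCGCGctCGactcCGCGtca
Grik3, chr4:125490446-125490695, plus strand, 42 CG: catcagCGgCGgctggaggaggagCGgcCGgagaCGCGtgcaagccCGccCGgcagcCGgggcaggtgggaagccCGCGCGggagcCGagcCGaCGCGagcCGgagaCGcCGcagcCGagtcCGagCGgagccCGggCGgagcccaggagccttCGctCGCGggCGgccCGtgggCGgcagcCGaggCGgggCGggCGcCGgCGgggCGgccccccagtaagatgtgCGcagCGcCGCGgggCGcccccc
Htr3b, chr9:48964991-48965240, minus strand, 1 CG: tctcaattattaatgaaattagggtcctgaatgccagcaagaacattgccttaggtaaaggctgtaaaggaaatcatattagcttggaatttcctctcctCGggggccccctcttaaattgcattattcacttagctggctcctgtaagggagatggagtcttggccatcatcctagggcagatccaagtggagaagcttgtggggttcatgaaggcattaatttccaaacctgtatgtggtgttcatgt
Gabra6, chr11:42321073-42321322, minus strand, 2 CG: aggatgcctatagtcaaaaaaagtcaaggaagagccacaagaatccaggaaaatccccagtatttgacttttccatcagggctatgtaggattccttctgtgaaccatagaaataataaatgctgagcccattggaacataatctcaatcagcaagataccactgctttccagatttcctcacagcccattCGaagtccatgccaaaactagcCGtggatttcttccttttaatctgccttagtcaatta
Htr2b, chr1:86111981-86112230, minus strand, 3 CG: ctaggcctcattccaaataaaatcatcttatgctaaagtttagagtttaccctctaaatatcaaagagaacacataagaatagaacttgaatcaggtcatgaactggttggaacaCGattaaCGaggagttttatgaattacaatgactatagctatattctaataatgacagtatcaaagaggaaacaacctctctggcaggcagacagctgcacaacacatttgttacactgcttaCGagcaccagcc
Both promoters marked in both lists were dense in CG, with 27 in Grin1 and 42 in Grik3. The other 3 held at most 3. These 5 do not stand for a clean split by CG count. Chrna5 with 3 CG in the same window, and Grm6 and Htr2a with 4 each, were marked in both lists, Drd5 with 35 was marked only in AAV-Cre, and the unmarked Gabrb2 held 8.

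Most of the receptor genes carried a region at the start site in AAV-Cre, and more than 1 in every 2 did in the unfiltered AAV-GFP list. Within 1 kb of a start site, 63 genes were marked in AAV-Cre (82.9%, Wilson 95% interval 72.9 to 89.7%) and 45 in AAV-GFP (59.2%, interval 48.0 to 69.6%). Among all protein-coding genes the shares were 24.6% and 17.1%. The intervals cover counting error only. All 45 genes marked in AAV-GFP were also marked in AAV-Cre, and across all genes 3488 of the 3549 marked in AAV-GFP were. Genes marked in both lists made up 59.2% of the set, against 16.8% of all genes. The 18 genes marked only in AAV-Cre made up 23.7% of the set, against 7.81% of all genes, and 0 genes were marked only in AAV-GFP, against 0.294%. The count marked only in AAV-Cre moved with the limits set on the regions, and the cause was not tested. It was 25 with a q-value of at most 0.05 and 24 with at most 0.01. With the strongest 34586 regions of each list it was 11, and with regions of 300 bp or wider it was 30. Shares of all genes under these limits are not given. The equal number and the width each acted on 1 list only. The equal number shortened the AAV-Cre list, and the width removed AAV-GFP regions, since the shortest AAV-Cre region was 300 bp.

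Within 15 kb of a start site, the distance used by the study, the set stood less far above the genome. Regions were found for 66 genes in AAV-Cre (86.8%, interval 77.4 to 92.7%; all genes 43.1%) and for 50 in AAV-GFP (65.8%, interval 54.6 to 75.5%; all genes 29.0%). Both lists marked 50 genes (all genes 27.7%), only AAV-Cre marked 16 (21.1%; all genes 15.3%) and only AAV-GFP marked 0 (all genes 1.25%). Over the gene bodies, 66 genes had a region in AAV-Cre (all genes 29.8%) and 53 in AAV-GFP (69.7%; all genes 21.4%). Both lists covered 52 bodies (all genes 20.7%), AAV-Cre alone covered 14 (all genes 9.10%), and AAV-GFP alone covered 1 (all genes 0.748%), that of Grik1.

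The mark was centred just inside the genes. At the most upstream start site itself, 53 of 76 receptor genes (69.7%) were covered by an AAV-Cre region, against 18.6% of all genes. In AAV-GFP 24 (31.6%) were covered, against 9.92%. Coverage was not symmetric around the start. At 1000 bp upstream an AAV-Cre region covered 34.2% of the receptor genes, against 12.6% of all genes. At 1000 bp into the gene the shares were 57.9% and 16.7%, so all genes leaned the same way. At 5000 bp upstream 5.26% of the receptor genes and 6.39% of all genes were covered in AAV-Cre, and 2.63% and 1.43% in AAV-GFP. Into the gene AAV-Cre coverage of the receptor genes fell, to 13.2% against 6.35% of all genes at 5000 bp and 10.5% against 5.09% at 12500 bp. In AAV-GFP it was 0% against 1.74% and 2.63% against 1.23% at these distances. So far from the start the shares rest on few genes and vary between steps. At 12500 bp 8 receptor genes were covered in AAV-Cre, and at 12250 and 12750 bp the share was 7.89%. The AAV-Cre shares were 5.26% against 4.79% at 14000 bp and 11.8% against 5.14% at 15000 bp.

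**Figure D1:**
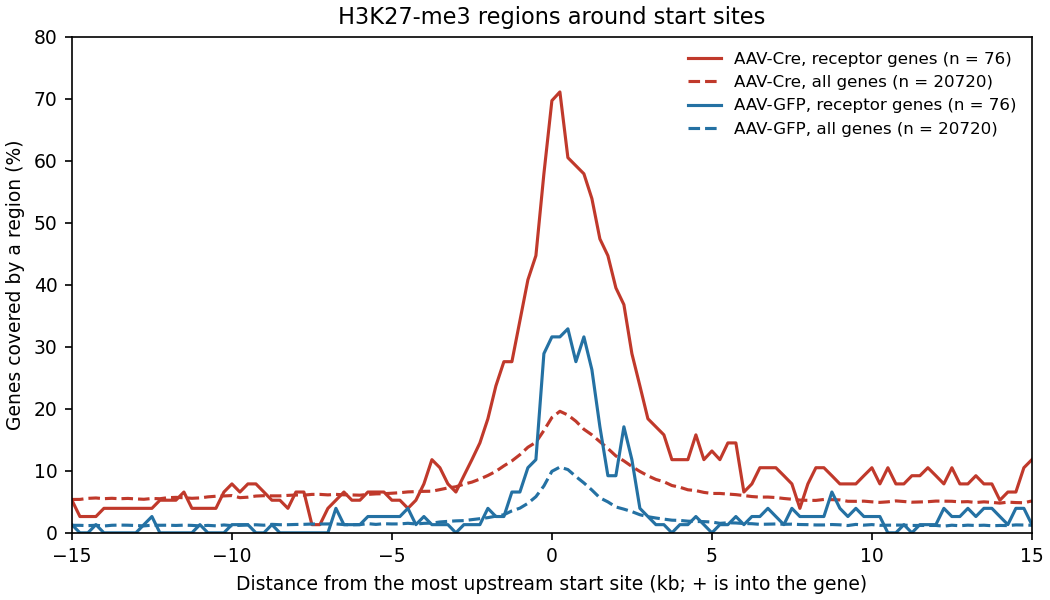
Percentage of genes covered by an enriched region at each distance from the most upstream start site (kb, positive into the gene), in steps of 250 bp, for the 76 receptor genes (solid lines) and all 20720 protein-coding genes (dashed lines) in the AAV-Cre list (red) and the AAV-GFP list (blue). The receptor genes rise to 71.1% at 250 bp into the gene in AAV-Cre and meet the line of all genes a few kilobases upstream.

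Where a receptor gene was marked, the length covered within 15 kb was ordinary. Among genes marked within 15 kb, the median sequence covered there was 3504 bp in AAV-Cre, against 3460 bp for all such genes, and 1348 bp in AAV-GFP, against 1203 bp. The strongest region within 1 kb had a median −log10 p of 14.2 in AAV-Cre, against 18.9 for all genes marked there, and 5.84 in AAV-GFP, against 8.39. These p-values come from the peak caller and rank regions within a list. The best region lay in the strongest 10% of the list for 32 of 63 receptor genes (50.8%) in AAV-Cre, against 58.6% of all marked genes, and for 16 of 45 (35.6%) in AAV-GFP, against 47.8%. The widest region within 1 kb had a median width of 2052 bp in AAV-Cre, against 2549 bp for all genes marked there. In AAV-GFP the widths were 839 and 916 bp. Receptor genes were thus marked more often than most genes, with start site regions that were on the median weaker and narrower.

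The regions of the lists nested at these genes. Within 15 kb of the start sites lay 216 AAV-Cre regions with a median width of 1029 bp and 191 AAV-GFP regions with a median width of 266 bp. Of the AAV-GFP regions 177 (92.7%) overlapped an AAV-Cre region, whereas 90 of the AAV-Cre regions (41.7%) overlapped an AAV-GFP region. An AAV-Cre region that was shared held 2.07 AAV-GFP regions on average. At Grin2a, which encodes a glutamate-binding NMDA receptor subunit, a single AAV-Cre region of 4482 bp lay over 8 AAV-GFP regions. Each of the 50 genes marked within 15 kb in both lists had more sequence covered in AAV-Cre, with a median ratio of 3.35 and a range from 1.34 to 17.2. The same held for 99.8% of all genes marked in both lists, whose median ratio was 3.82, so the receptor genes followed the lists as a whole.

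The G protein-coupled receptor genes were marked more completely than the channel genes in AAV-Cre and as often in AAV-GFP. Within 1 kb, 28 of 29 G protein-coupled receptor genes (96.6%) and 34 of 46 channel genes (73.9%) were marked in AAV-Cre. In AAV-GFP the counts were 17 (58.6%) and 27 (58.7%). Marked only in AAV-Cre within 1 kb were 11 of the 29 G protein-coupled receptor genes and 7 of the 46 channel genes. Among all genes 24.6% were marked within 1 kb in AAV-Cre, 17.1% in AAV-GFP and 7.81% only in AAV-Cre. No test of the difference between the classes was made.

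**Figure D2:**
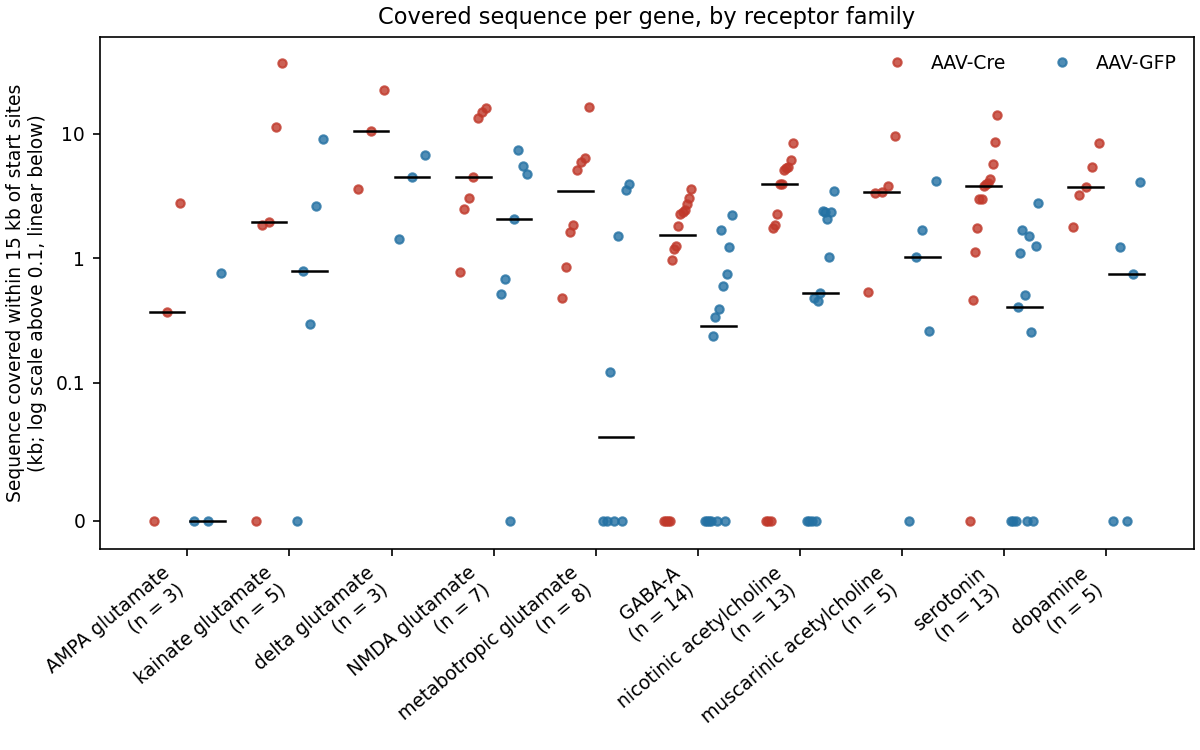
Sequence covered by enriched regions within 15 kb of the start sites (kb, on a log scale above 0.1 and linear below) for each gene, by receptor family, in AAV-Cre (red) and AAV-GFP (blue), with a black line at the median of the family. Grik4 has the highest AAV-Cre point with 37.0 kb, the delta family has the highest AAV-Cre median, and genes at 0 occur in AAV-Cre in the AMPA, kainate, GABA-A, nicotinic and serotonin families.

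AMPA receptors carry most fast excitatory transmission, and their genes were the least covered of the glutamate receptor families. Gria3 lies outside chromosomes 1 to 19 and was not examined. Of the other 3 genes, Gria2, whose product limits calcium entry through the channel, had 2757 bp covered within 15 kb in AAV-Cre and 756 bp in AAV-GFP. The strongest AAV-Cre region, chr3:80801563-80803386, spanned the start site with a fold enrichment over input of 3.64 and a −log10 p of 9.88. Gria4 had a single AAV-Cre region of 372 bp, and the nearest AAV-GFP region was 593957 bp from its start, the farthest of the genes marked in AAV-Cre alone. Gria1 had a region in neither list, with the nearest AAV-Cre region 139961 bp away. The AMPA genes therefore ran from both lists to neither.

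Kainate receptors modulate transmission on both sides of the synapse. Grik4, which encodes a subunit with high affinity for kainate, was the most covered of all 76 genes in both lists, with 37039 bp within 15 kb in AAV-Cre and 9062 bp in AAV-GFP. Its strongest AAV-Cre region, chr9:42938636-42946063, was 7428 bp wide and spanned the start site, with a fold of 13.2 and a −log10 p of 73.1. The mark was not limited to the start. Across the 426359 bp of the gene (chr9:42518135-42944493, minus strand) lay 91 AAV-Cre regions that covered 27.9% of it, the fifth highest number among 20720 genes (rank 5), and 87 of them were intronic by annotation. AAV-GFP had 40 regions over the gene, 39 of which overlapped an AAV-Cre region, and they covered 3.13% of it (rank 34). All other kainate receptor genes were far less covered. Grik3, a gene of 223474 bp, had 11343 bp covered within 15 kb in AAV-Cre and 2635 bp in AAV-GFP. Grik2 had 1937 and 293 bp, and Grik5 had 1855 and 790 bp. Grik1 had no region within 15 kb, and it was the only gene of the set whose body held AAV-GFP regions and no AAV-Cre region. Those 2 regions, of 120 and 345 bp, had q-values of 0.43 and 0.18 and lay in introns.

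Grid1, which encodes a delta receptor that organises synapses rather than conducts a glutamate current, and Grid2ip were marked within 1 kb in both lists. Grid1 had 10572 bp covered within 15 kb in AAV-Cre and 4517 bp in AAV-GFP, with a start site region of 6704 bp and a −log10 p of 45.6 in AAV-Cre. Grid2ip had 22307 and 6702 bp, the second highest value of the set in AAV-Cre and the third highest in AAV-GFP.

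NMDA receptors are coincidence detectors assembled from the GRIN1 subunit with GRIN2 or GRIN3 subunits. All 7 genes were marked within 1 kb in AAV-Cre and 6 in AAV-GFP. Grin1 (chr2:25291181-25319187, minus strand) had 12 regions and 15976 bp covered within 15 kb in AAV-Cre, against 11 regions and 4736 bp in AAV-GFP. AAV-Cre regions spread over 74.7% of its body and AAV-GFP regions over 22.8%. The strongest AAV-Cre region was at the far end of the gene, chr2:25288166-25294253, with a width of 6088 bp, a fold of 18.9 and a −log10 p of 111, and it covered the start of the neighbouring gene Lrrc26. The region over the Grin1 start itself was 1890 bp wide, with a −log10 p of 21.1. Grin2c, whose subunit prevails in the adult cerebellum, had the strongest start site region of the family, with 5104 bp and a −log10 p of 58.7 in AAV-Cre and 3244 bp and a −log10 p of 25.6 in AAV-GFP. Grin2d had 13264 bp covered within 15 kb in AAV-Cre and 7401 bp in AAV-GFP, the second highest AAV-GFP value of the set. Grin2a, Grin2b and Grin3a were covered over 773 to 4482 bp in AAV-Cre and 518 to 2074 bp in AAV-GFP. Grin3b, a glycine-binding subunit, had 3052 bp in AAV-Cre and 0 bp in AAV-GFP, where the nearest region was 17586 bp away.

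Metabotropic glutamate receptors tune release and excitability. All 8 genes were marked within 1 kb in AAV-Cre and 4 in AAV-GFP. Grm4, which encodes a presynaptic receptor, had 16287 bp covered within 15 kb in AAV-Cre, the third highest value of the set, and 3948 bp in AAV-GFP. Grm6, which encodes the receptor of retinal ON bipolar cells, had the strongest start site region of the family in AAV-Cre, 6392 bp wide with a −log10 p of 32.2, and 3516 bp covered in AAV-GFP. Grm5, Grm7 and Grm8 were marked only in AAV-Cre. Grm8 had 5914 bp covered within 15 kb in 5 regions, and its start site region, chr6:28132248-28135421, had a fold of 7.69 and a −log10 p of 28.0. This was the strongest region among the genes marked only in AAV-Cre, and the nearest AAV-GFP region was 160168 bp from the start. Grm7 stood at the other end, with 854 bp and a −log10 p of 3.02. Grm5, an excitatory receptor coupled to phospholipase C, had 478 bp. Grm5 and Grm7 each had 2 AAV-GFP regions within the gene body, far from the start, and over the bodies 7 of 8 genes of the family were marked in AAV-GFP.

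GABA-A receptors are chloride channels that carry most fast inhibition, and most of their subunit genes lie in clusters. Of the 14 genes, 9 were marked within 1 kb in AAV-Cre and 6 in AAV-GFP. In the cluster on chromosome 5, all 4 genes were marked in AAV-Cre. Gabra2, Gabra4 and Gabrb1 were also marked in AAV-GFP, with 972, 3034 and 2358 bp covered within 15 kb in AAV-Cre and 236, 1233 and 601 bp in AAV-GFP. Gabrg1 had 1254 bp in AAV-Cre only. On chromosome 7, Gabrg3 had 1809 and 388 bp, whereas Gabra5, which encodes an alpha subunit of hippocampal receptors, had 2439 bp in AAV-Cre only. Gabra6 and Gabrb2, on chromosome 11, had no region within 15 kb in either list. The nearest AAV-Cre region was 136712 bp from Gabra6 and 235420 bp from Gabrb2, the farthest of the set. The rho subunit genes were less often marked at the start. Gabrr1 had a start site region only in AAV-Cre, and Gabrr3 had regions in both lists at a distance from its start, the nearest 12260 bp away in AAV-Cre and 13266 bp away in AAV-GFP. Gabrr2 was marked in neither list, with the nearest AAV-Cre region 46946 bp away.

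Nicotinic acetylcholine receptors are cation channels of neurons and muscle, and their gene clusters contrasted with each other. Chrna5, Chrna3 and Chrnb4, which lie next to each other on chromosome 9 and encode subunits of the ganglionic receptor, were all marked within 1 kb in both lists. Chrna5 had 8480 bp covered within 15 kb in AAV-Cre and 3473 bp in AAV-GFP, and its start site region, chr9:54980483-54984071, had a −log10 p of 47.4, the highest of the family. Chrna3 had 5060 and 2347 bp, and Chrnb4 had 6159 and 2333 bp. An AAV-Cre region of 801 bp lay within 15 kb of both Chrna3 and Chrnb4, so their values are not independent, but each gene also had a region over its own start. Chrnb3 and Chrna6, a pair on chromosome 8 whose products form receptors on dopamine neurons, were marked in neither list, with the nearest AAV-Cre regions at 82944 and 128177 bp. Chrna2 was also unmarked, with the nearest AAV-Cre region at 150858 bp. Chrna7, which encodes the homomeric receptor studied in macrophages and liver, had 2272 bp covered within 15 kb in AAV-Cre and 452 bp in AAV-GFP. Its AAV-Cre region within 1 kb was 1238 bp wide with a −log10 p of 10.9. Chrna4 and Chrnb2 encode the main high-affinity receptor of brain. Chrna4 had 5328 and 2067 bp, and Chrnb2 had 1745 and 481 bp. Chrna9, a subunit of cochlear hair cells, had 1835 bp in AAV-Cre only. Chrna1, the muscle alpha subunit, and Chrna10 were marked within 15 kb but not within 1 kb in both lists, and 3 of the 4 AAV-Cre regions near Chrna10 lay closer to the start of Art5.

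Muscarinic receptors couple acetylcholine to G proteins. All 5 genes were marked within 1 kb in AAV-Cre and 3 in AAV-GFP. Chrm4 had 9586 bp covered within 15 kb in AAV-Cre and 4178 bp in AAV-GFP. Its strongest AAV-Cre region, chr2:91920626-91926286, was 5661 bp wide, with a fold of 17.4 and a −log10 p of 97.8, the highest value within 1 kb of any start site in the set, within the top 0.0202% of the list. That region lay upstream of the gene as GENCODE models it and over the RefSeq start, 5060 bp farther upstream. Chrm3, whose product has been studied in liver, had 3331 bp in AAV-Cre and 1019 bp in AAV-GFP. Chrm2 had 3397 and 1696 bp. Chrm1 had 3760 bp covered in AAV-Cre, whereas its only AAV-GFP region, of 262 bp, lay 1925 bp from the start. Chrm5 had 533 bp in AAV-Cre and 0 bp in AAV-GFP.

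Serotonin receptors are G protein-coupled except for the channel made of HTR3 subunits. Of the 13 genes, 12 were marked within 1 kb in AAV-Cre and 8 in AAV-GFP. Htr6, a receptor of the forebrain, had the most sequence covered within 15 kb, with 14076 bp in AAV-Cre and 2794 bp in AAV-GFP. Htr1d had the strongest start site region, with 2475 bp, a fold of 11.5 and a −log10 p of 53.4 in AAV-Cre and 1055 bp and a −log10 p of 12.9 in AAV-GFP. Htr2a, whose product has been studied in stellate cells, had a single AAV-Cre region of 3007 bp with a fold of 5.30, and 5 AAV-GFP regions that covered 1682 bp. Htr2b was the only G protein-coupled receptor gene of the set without a region in either list. Its start lies inside the proteasome gene Psmd1, and the nearest regions were 91973 bp away in AAV-Cre and 190411 bp away in AAV-GFP. Htr1a, Htr1f, Htr3b and Htr5a were marked only in AAV-Cre, with 1121, 457, 3924 and 5691 bp. Htr3a, which encodes the subunit that Htr3b joins and lies near it on chromosome 9, had 3799 bp in AAV-Cre and 503 bp in AAV-GFP. Both channel genes were therefore marked in AAV-Cre, and Htr3a alone in AAV-GFP. The only AAV-GFP region within 1 kb of the Htr3a start sites was 144 bp wide, with a q-value of 0.088.

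Dopamine receptors fall into D1-like receptors, which raise cyclic AMP, and D2-like receptors, which lower it. All 5 genes were marked within 1 kb in AAV-Cre and 3 in AAV-GFP. Drd4, a D2-like receptor with a short gene of 4459 bp, was covered over 94.9% of its body in AAV-Cre and 76.3% in AAV-GFP. Its start site region, chr7:141290467-141296238, had a fold of 10.9 and a −log10 p of 66.6. Drd1 had 5364 bp covered within 15 kb in AAV-Cre and 742 bp in AAV-GFP, and Drd2 had 3193 and 1239 bp. Drd5, the other D1-like receptor, had 3714 bp in AAV-Cre and 0 bp in AAV-GFP, and Drd3 had 1780 and 0 bp. Neither type of dopamine receptor was therefore marked as a group in AAV-GFP.

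The genes marked only in AAV-Cre had weaker AAV-Cre regions than those marked in both lists. Within 1 kb, the best AAV-Cre region of the 18 genes marked only there had a median −log10 p of 5.92, with a range from 3.02 to 28.0, and a median width of 972 bp. For the 45 genes marked in both lists the median −log10 p was 17.7, with a range from 3.33 to 97.8, and the median width was 2612 bp. The q-value did not exceed 0.05 for 17 of these 18 regions. Only Grm8 and Chrm1 among them had a region in the strongest 10% of the list. The nearest AAV-GFP region was 1925 to 593957 bp from the start of these genes, with a median of 154126 bp.

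Genes of the same strength in AAV-Cre were found in AAV-GFP about as often, or more often, in the receptor set than elsewhere. Among genes whose best AAV-Cre region within 1 kb was in the strongest 10%, 30 of 32 receptor genes (93.8%) were also marked in AAV-GFP, against 94.4% of all genes. The counts were 8 of 9 against 61.4% in the next class of 10 to 20%, 4 of 10 against 28.9% in the class of 20 to 40%, and 3 of 12 against 10.3% below it. With the classes weighted as in the receptor set, 63.3% of all marked genes and 71.4% of the receptor genes were found in both lists. Among genes marked in AAV-Cre within 1 kb, 28.6% of the receptor genes and 31.7% of all genes were missing from AAV-GFP. The shares within 15 kb were 24.2% and 35.6%. The share of receptor genes marked only in AAV-Cre was therefore not above that of all genes weighted to the same rank classes. The classes below the strongest 10% held 9, 10 and 12 receptor genes, so their shares are coarse. Why genes were marked only in AAV-Cre was not tested.

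**Figure D3:**
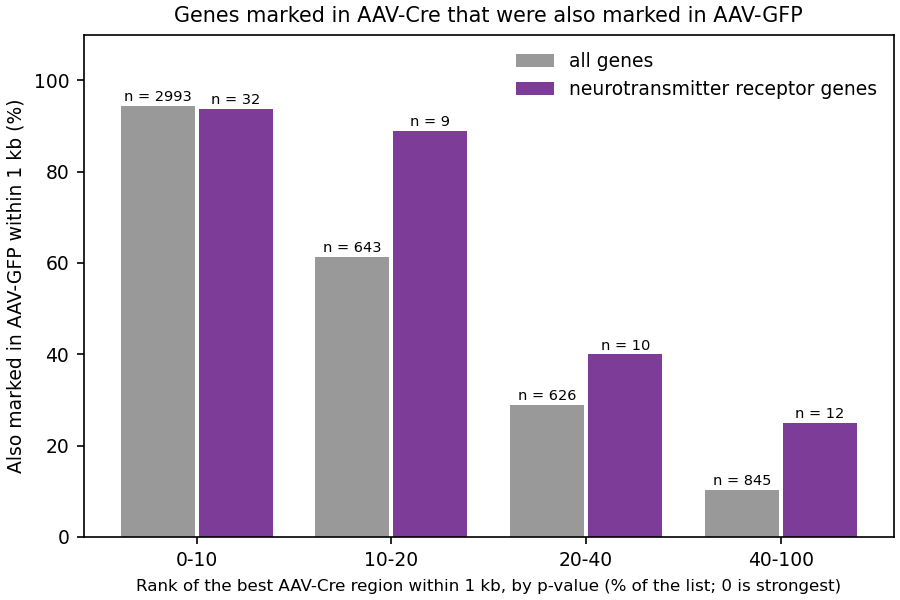
Percentage of genes marked within 1 kb in AAV-Cre that were also marked within 1 kb in AAV-GFP, by the rank of their best AAV-Cre region (percent of the list by p-value, 0 is strongest), for all genes (grey) and the receptor genes (purple), with the number of genes above each bar. The share falls from 94.4% to 10.3% for all genes and from 93.8% to 25.0% for the receptor genes.

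Content of CG at the start site, which the rule did not use, differed between marked and unmarked receptor genes. The ratio of observed to expected CG within 1 kb of the most upstream start had a median of 0.517 in the 45 genes marked in both lists, 0.405 in the 18 marked only in AAV-Cre and 0.227 in the 13 marked in neither. Among all genes the medians of these classes were 0.557, 0.327 and 0.492, so that unmarked genes in general were not poor in CG. Of the 47 receptor genes with a ratio of 0.384 or higher, 45 (95.7%) were marked within 1 kb in AAV-Cre and 35 (74.5%) in AAV-GFP. All genes above that ratio were marked at 27.6% and 22.3%. The exceptions were Gabrb2 with a ratio of 0.447 and Grik1 with 0.619. Of the 29 receptor genes below it, 18 (62.1%) were marked in AAV-Cre and 10 (34.5%) in AAV-GFP, against 20.2% and 9.33% of all genes.

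**Figure D4:**
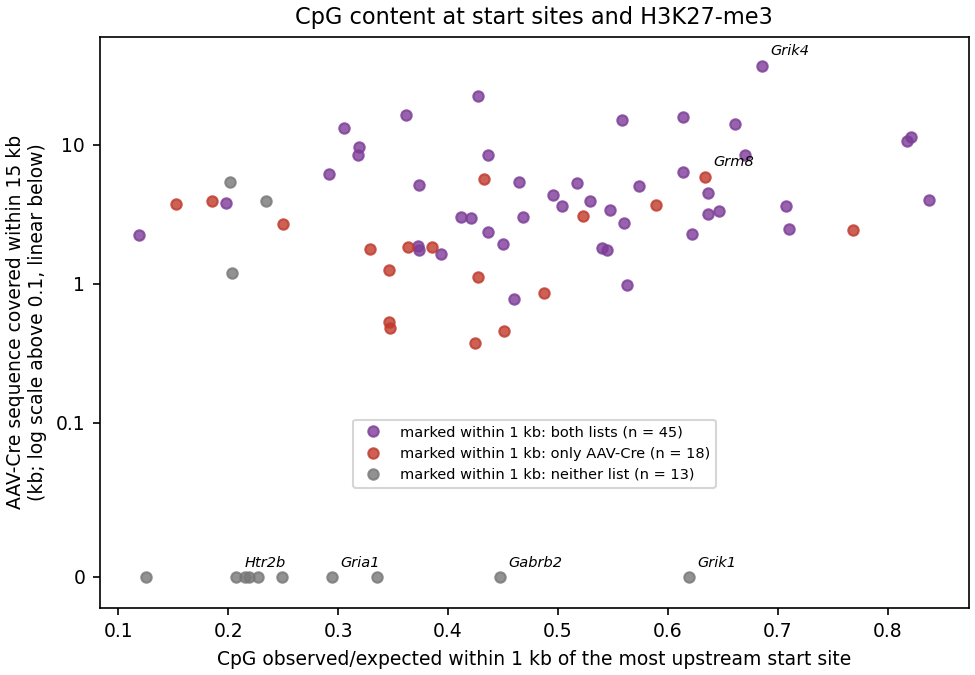
Sequence covered by AAV-Cre regions within 15 kb of the start sites (kb, on a log scale above 0.1 and linear below) against the ratio of observed to expected CG within 1 kb of the most upstream start, for the 76 receptor genes. Genes marked in both lists are purple, genes marked only in AAV-Cre are red and genes marked in neither list are grey, and Gabrb2 and Grik1 stand alone among unmarked genes at ratios above 0.384.

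The receptor genes are long, with a median of 54.6 kb against 17.6 kb for all genes, and 28 of them (36.8%) reach 100 kb against 11.4%. Both short and long receptor genes were mostly marked. An AAV-Cre region lay over 41 of 48 bodies shorter than 100 kb, against 4867 of 18356 genes in general, and over 25 of 28 longer bodies, against 1298 of 2364. Along the joined bodies the receptor genes held 2.25 AAV-Cre regions per 100 kb, against 2.68 for all genes, and 1.62 without Grik4. The corresponding AAV-GFP values were 1.51, 1.76 and 1.25. The long bodies of the receptor genes were therefore not richer in regions than the average gene body.

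Many neuronal genes carry RE1, the element bound by the repressor REST, which keeps them silent outside neurons. The start sites were searched on both strands for exact matches to a core of that element, which reads CAGCACC, any 2 bases, and then GGACAG. The core was found within 1 kb of the most upstream start of 5 receptor genes (6.58%), against 52 of all genes (0.251%). The 5 sites are shown because they were the only such matches, with the core in capitals and 7 flanking bases on either side, from 5′ to 3′ along the strand of the match in mm10.
Grin1, chr2:25319011-25319039, minus strand: tacgcttCAGCACCTCGGACAGcacccgc
Chrnb2, chr3:89764451-89764479, minus strand: gcggcttCAGCACCACGGACAGcgctccg
Drd2, chr9:49341193-49341221, minus strand: cgggattCAGCACCAAGGACAGcagaaag
Drd3, chr16:43753920-43753948, plus strand: tctctctCAGCACCAAGGACAGagagccg
Htr1a, chr13:105442782-105442810, minus strand: ttgggttCAGCACCCGGGACAGctctgtg
The Grin1 and Chrnb2 cores lay in exon sequence, the Drd2 core in an intron, and the Drd3 and Htr1a cores upstream. Of the 5 cores, 4 lay inside an AAV-Cre region, that of Htr1a lay outside, and 0 lay inside an AAV-GFP region. Of the 56 distinct cores within 1 kb of any gene, 42 lay inside an AAV-Cre region and 25 inside an AAV-GFP region. Grin1, Chrnb2 and Drd2 were marked within 1 kb in AAV-GFP, with regions that did not reach the core. A match of letters is a description of the sequence and does not show that REST was bound.

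Other genes of the same systems were marked to different extents. For comparison, 24.6% of all genes were marked within 1 kb in AAV-Cre, 17.1% in AAV-GFP and 7.81% only in AAV-Cre. The further receptor genes numbered 35, such as those for glycine, opioids, histamine, adenosine, ATP and cannabinoids. Of these, 23 (65.7%) were marked within 1 kb in AAV-Cre and 13 (37.1%) in AAV-GFP, so that 10 were marked only in AAV-Cre. Hrh3, an autoreceptor for histamine, had 10772 bp covered within 15 kb in AAV-Cre and 4828 bp in AAV-GFP, whereas Oprk1, the kappa opioid receptor gene, had 1103 and 0 bp. Of 34 genes for auxiliary subunits and scaffolds, the same 28 (82.4%) were marked in both lists, and 0 were marked only in AAV-Cre within 1 kb. Shank3, a scaffold of excitatory synapses, had 16689 and 5198 bp, and Cacng2, which encodes the AMPA receptor partner stargazin, had 4814 and 648 bp. Of 33 genes for synthesis and transport of the transmitters, 22 (66.7%) were marked in AAV-Cre and 20 (60.6%) in AAV-GFP. Gad1, which makes GABA, had 15412 and 6527 bp, whereas Glul and Abat, which metabolise glutamate and GABA and are used by liver, had no region within 15 kb in either list. No test of these lists was made.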

How the data were processed

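H3K27-me3 ChIP-seq and input libraries of mouse liver were made by the authors, 2 of each per virus (8 libraries). The authors ran the AQUAS pipeline, mapping reads to mm10 with BWA and filtering them with SAMtools and Picard (versions 0.7.13, 1.2 and 1.126 in the submitters' processing notes). MACS called the peaks against a pooled input, and those seen in both replicates by overlap were kept as the enriched regions. Broad domains called as narrow peaks are split into several regions. The deposited lists give for each region a fold enrichment over input as a ratio, a p-value as −log10 and a q-value on the same −log10 scale, which were used to rank and filter regions within a list only. The deposited display score was not used. The authors' lists hold no counts, so depth per sample is unknown.

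Genes, start sites of basic protein-coding transcripts and bodies were taken from GENCODE on GRCm38, the assembly that mm10 names. A gene was called marked when at least 1 bp of a region lay within 1 kb or 15 kb of a start site, or over the body. The shortest region was 300 bp in AAV-Cre and 120 bp in AAV-GFP, and the q-value did not exceed 0.05 in 88.6% and 46.8% of the regions. Shares have Wilson 95% intervals. CG content was computed within 1 kb of the most upstream start. Promoter sequences came from the RefSeq table (GRCm38.p6), which held 56 of the 76 genes. Groups were taken from the labels. No test between viruses was made, since each list pools both replicates. The marking functions were tested on simulated data.

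The genes, the other gene lists and the comparisons were chosen with earlier results of these data known. The genes named are the 3 most covered genes of each list, the gene with the highest −log10 p of each family, genes marked in 1 list only or in neither, members of clusters, and Htr2b, Htr2a, Chrna7, Chrm3, Chrna4 and Grin1. Some genes that this rule selects are not reported here. Further genes were named after their values were seen, to complete the families or as examples of the other lists. As alternatives, a q-value of at most 0.05 or at most 0.01, equal numbers of regions per list, minimum widths and overlaps, other windows and start sites, leaving out Grid2ip, and classes of gene length and CG content were tried. Python 3.11.15, numpy 2.4.6, pandas 2.3.3, pysam 0.24.0 and matplotlib 3.10.9 were used.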

Additional observations from a re-analysis of the deposited data

How the results depend on the processing

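The counts of receptor genes marked in each list and in both lists stayed within 1.5 times under every alternative tried, and AAV-Cre marked at least as many as AAV-GFP throughout. Within 1 kb, the AAV-GFP count still fell below 1 in every 2 genes under both q-value limits and under the minimum width of 300 bp. Counts of genes marked in a single list moved. With a q-value of 0.05 or lower, AAV-Cre alone marked 25 genes within 1 kb, 24 within 15 kb and 24 bodies. AAV-GFP alone marked 0 bodies. At 0.01, 24 genes within 1 kb, 25 within 15 kb and 25 bodies were marked only in AAV-Cre. Only AAV-GFP marked 1 gene within 1 kb, 1 within 15 kb and 0 bodies at that limit. With the strongest 34586 regions of each list, 11 genes within 1 kb and 10 within 15 kb were marked only in AAV-Cre, and 1, 1 and 3 only in AAV-GFP within 1 kb, within 15 kb and over the body. With regions of 300 bp or wider, 30, 25 and 26 were marked only in AAV-Cre. That width removed no AAV-Cre region, whereas the equal number shortened the AAV-Cre list only. In a 50 kb window 2 were marked only in AAV-GFP. The shares of all genes rose when weighted by the length classes of the receptor genes, to 29.4% (AAV-Cre) and 21.4% (AAV-GFP) within 1 kb, 45.6% and 31.5% within 15 kb and 36.2% and 27.7% over bodies, and by their CG classes, to 30.6% and 20.9%, 50.2% and 33.7%, and 36.3% and 25.9%. The cause of these shifts was not tested. No paired analysis was possible because each deposited list pools both replicates, and for the same reason no replicate could be left out.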
